A study of Mus musculus with 4 samples.

Results

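The genes described here write, read and erase DNA methylation. They are 10 genes, and all probe sets of the array that carry 1 of these symbols alone were taken, which gave 26 of the 45101 probe sets. Dnmt1, Dnmt3a and Dnmt3b encode the methyltransferases, Uhrf1 and Uhrf2 the proteins that read newly replicated DNA, Mbd2 and Mbd4 methyl-CpG binding proteins, and Tet1, Tet2 and Tet3 the dioxygenases that oxidise methylcytosine. Their transcripts were measured in 4 populations of B cells from adult C57BL6/J wild type mice, each on 1 single-colour Affymetrix array. Germinal centre (GC) B cells, which divide and mutate their antibody genes, were the B220+PNA+Fas+ cells of the sort, and B220+PNA-Fas- cells were taken as naive. The GC and naive cells of peripheral lymph nodes (pLN) came from mice immunised with TNP-KLH, a hapten on a carrier protein, in incomplete Freund's adjuvant. The GC and naive cells of Peyer's patches (PP), lymphoid follicles of the small intestine, came from mice that had no treatment. Each array held RNA pooled from 3 to 5 mice, and precision is limited by there being 4 arrays.

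Methylation of CpG sites is copied after each round of replication. UHRF1 binds the hemimethylated site and brings in DNMT1, which methylates the new strand, whereas DNMT3A and DNMT3B place methyl groups on unmethylated sites. The TET enzymes oxidise methylcytosine as a step of demethylation, MBD2 recruits a repressive complex to methylated DNA, and MBD4 is a glycosylase that removes thymine left by deamination at CpG sites. In B cells the GC reaction is known for rapid division, and DNMT1 and TET2 have known roles in it in mice.

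The labels were first set against marker genes. Fas, the sort marker, had signals of 4266 and 4980 in GC cells from pLN and PP, against 515 and 403 in naive cells from pLN and PP. Among marker lists of the 2 populations, 5 of 6 GC genes were called higher and 4 of 4 naive B cell genes lower in GC cells. All 5 B cell markers on the array were above the detection level on every array. The detection level is the 90th percentile, on each array, of 77 probe sets for genes of other tissues. It was 33.4 and 86.8 on the GC arrays of pLN and PP, against 84.8 and 256 on the naive arrays of pLN and PP. Among the GC genes called higher, S1pr2, Gcsam, Rgs13 and Mybl1 had a naive signal below the level. They were tested only because their GC signals exceeded it, so their count is a description only. Of 6 gut epithelium markers, Krt8, Lgals4 and Fabp2 were above the level on both PP arrays, Epcam on GC PP alone and Krt20 on naive PP alone, and on the pLN arrays only Lgals4 was. Their summed signal was 475 in GC and 1188 in naive cells from pLN, and 1492 in GC and 3638 in naive cells from PP. Krt8, one of them, read 1241 in naive PP. Of 8 T cell markers, an array had 1 to 7 above its level, with sums from 598 to 1206, and between 1 and 5 of 8 macrophage and monocyte markers, with sums from 760 to 906. Of 5 dendritic markers, Zbtb46 was above the level on every array but naive PP, where none of the 5 was, and others differed between arrays. They summed to 1319 and 1872 in GC cells, against 628 and 238 in naive cells. Most of the GC sums came from Flt3, at 1083 and 1231 in GC cells, against 71.3 and 14.3 in naive cells. Flt3 was called higher in GC cells. The 6 stromal and follicular dendritic markers summed to 4160 and 3613 in GC cells, against 12446 and 10052 in naive cells, most of it from Cr2, which follicular B cells also express. Clu was above the level on every array, at 67.2 and 396 in GC cells, against 248 and 812 in naive cells. Col1a1 and Pdpn were below the level on all 4 arrays, as were Cd14, Hba-a1 and Alas2. The other erythroid marker on the array, Car2, was above it on every array but naive PP. Car2 read 371 and 538 in GC cells, against 329 and 99.6 in naive cells, and was called higher in GC cells. Of 4 granulocyte markers S100a8 and S100a9 were above the level on GC pLN alone, with a sum over the 4 of 705 there, against 44.6 on GC PP, 105 on naive pLN and 122 on naive PP. The part of other cell types in the results was not tested.

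The arrays also differed in a sign of RNA quality that moved with cell type. For Gapdh, the signal of the 3' control probe set over that of its 5' partner was 1.48 and 1.67 in GC cells from pLN and PP, against 18.7 and 96.4 in naive cells from pLN and PP. On the log2 scale the 5' control of Gapdh was higher in GC cells by 2.88 in pLN and 4.25 in PP, whereas its 3' control differed by -0.77 in pLN and -1.55 in PP. The 5' and 3' controls of Actb differed by 2.14 and -0.86 in pLN and by 2.86 and -2.32 in PP. Over the 9 spike-in probe sets the median was 3217 and 3071 on the GC arrays, against 4588 and 11565 on the naive arrays of pLN and PP. The distance of each probe set from the end of its transcript was not used here, and the part of the 3' to 5' difference in each GC-naive value was not tested.

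The first comparison asked how the transcripts of these genes differed between GC and naive B cells. Transcripts of Uhrf1 and Mbd4 were higher in GC cells by every probe set, those of Dnmt1 by 2 of 3 probe sets and those of Mbd2 by 1 of 2. A probe set of Tet2 was lower in GC cells. The probe sets of Dnmt1 and of Dnmt3a were called in both directions, and Tet1 was not measurable on any array. A probe set was tested with limma, with tissue as a block, where both arrays of GC or of naive cells exceeded their level, and it was called at a Benjamini-Hochberg adjusted p under 0.05 over all 21406 tested probe sets. Of the 26 probe sets of the 10 genes, 21 were tested, 9 were called higher, 3 were called lower and 9 were not called. Among all tested probe sets 34.4% were called higher and 16.6% lower, and among the 21 of these genes 42.9% and 14.3%, so the counts alone do not set the genes apart. In counts, 7354 of all tested probe sets were higher and 3545 lower, against 5480 and 4365 after quantile normalization, which moved the median of all log2 differences to 0.14. Of the 9 called higher, 7 passed the filter through the GC arrays alone, so the filter favoured high GC signals and their number is a description only. Among the 21 tested, 11 passed that way, and not all of these were called. With the filter on all 4 arrays 3 probe sets of these genes were called higher and 4 lower, and over the whole array 2176 higher and 3548 lower, which turns the balance. The median log2 difference was 0.93 over these 21 probe sets and 0.45 over all tested ones. Each p-value rests on the disagreement between pLN and PP, where 1 residual degree of freedom was moderated across the tested probe sets, and not on variation between mice. In such bulk samples fewer cells of a type and less RNA per cell cannot be told apart.

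**Figure D1:**
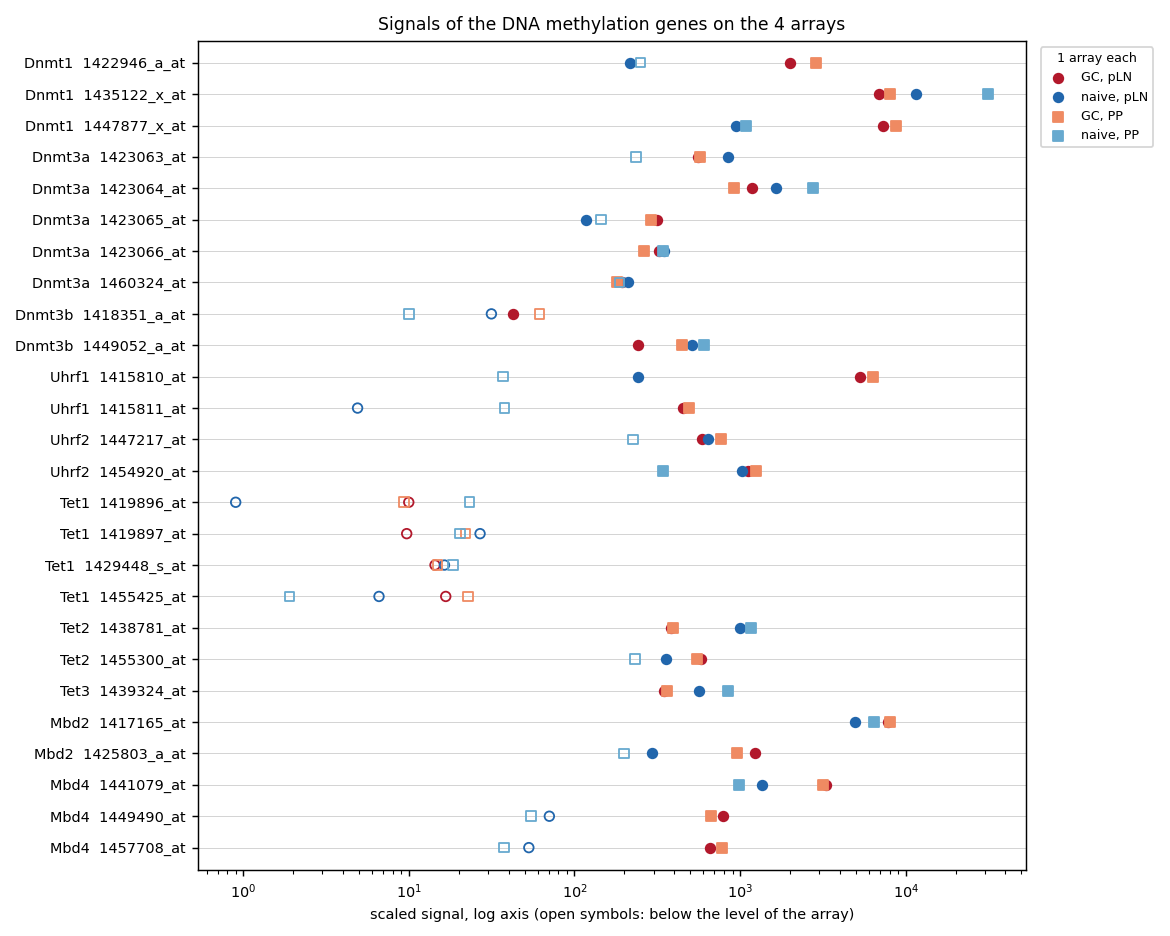
Scaled signal of each of the 26 probe sets (rows) on the 4 arrays, on a log axis; circles are pLN, squares PP, red shades GC cells and blue shades naive cells, and open symbols lie below the detection level of their array. The GC symbols stand right of the naive ones in every row of Uhrf1 and Mbd4, and all 4 rows of Tet1 hold open symbols only.

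Uhrf1, which targets maintenance methylation to replicated DNA, showed the largest difference of the 10 genes. Its probe set 1415810_at read 5318 and 6338 in GC cells from pLN and PP, against 243 and 37.0 in naive cells from pLN and PP. Both GC signals lay far above both naive signals, and the naive PP signal was below the level. The log2 difference was 5.67 ± 0.47 (GC minus naive, SE over the 4 arrays, limma adjusted p = 1.0e-11), or at least 23.3-fold with the naive PP signal set to the level. The difference was 4.50 without naive PP and 6.84 without naive pLN. The second probe set, 1415811_at, read 454 and 489 in GC cells from pLN and PP, against 4.90 and 37.8 in naive cells from pLN and PP. Both probe sets entered the test through the GC arrays alone. Both naive signals of 1415811_at were below the level, so GC cells were at least 3.20-fold higher by this probe set. Such bounds set a dim signal at the detection level of its array.

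For Dnmt1, the maintenance methyltransferase, the probe sets went in opposite directions. Probe set 1447877_x_at read 7246 and 8759 in GC cells from pLN and PP, against 938 and 1088 in naive cells from pLN and PP, and the GC signals were 7.88-fold higher as a ratio of geometric means. Probe set 1422946_a_at read 2013 and 2887 in GC cells from pLN and PP, against 216 and 251 in naive cells from pLN and PP. These 2 probe sets rose in GC cells by 2.96 ± 0.43 and 3.30 ± 0.42 on the log2 scale (limma adjusted p = 7.2e-07 and 7.8e-08). Probe set 1422946_a_at entered the test through the GC arrays alone. Its naive PP signal was just below the level, which makes its ratio at least 10.2-fold. Where Apoa1, a gene of gut epithelium too, was left out of the background list, the level on naive PP was 141, and 7 naive PP signals of the 10 genes that are described here as below the level lay above it, this one among them. The third probe set, 1435122_x_at, went the other way, with 6921 and 8020 in GC cells from pLN and PP, against 11490 and 31580 in naive cells from pLN and PP. It was called lower in GC cells, by -1.35 ± 0.50 (limma adjusted p = 0.023). Its differences of -0.73 in pLN and -1.98 in PP stand beside those of the Gapdh 3' control, -0.77 and -1.55, while the other 2 probe sets moved in the direction of the Gapdh 5' control. The positions of these probe sets in the transcript were not used, and the part of RNA quality in their disagreement was not tested. The call of the third probe set was lost after cyclic loess (-0.29, limma adjusted p = 0.53) and quantile normalization (-0.33, limma adjusted p = 0.28), and also when the GC pLN array (-1.25, limma adjusted p = 0.32) or the GC PP array (-1.46, limma adjusted p = 0.25) was left out. With no tissue block (limma adjusted p = 0.066) and with no filter on dim probe sets (limma adjusted p = 0.067) it was lost at an equal difference of -1.35. It was kept without naive PP, at -0.62, and without naive pLN, at -2.08. The other 2 kept their calls in every setting that tested them. With the mean of its 3 probe sets, Dnmt1 was higher in GC cells by 1.64 ± 0.34 in a fit over genes (limma adjusted p = 0.0018).

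The start regions of the genes called higher by most of their probe sets are shown because E2F factors, known regulators of replication genes, have a described binding motif that can be looked for in them. The sequences are RefSeq promoter windows of the mouse build GRCm38.p6, 250 bases before to 50 after an annotated start, written 5' to 3' on the strand of the gene. Windows of 9 of the 10 genes were searched. No window of Mbd2 was included, so its start region was not examined. Capitals mark matches, on either strand, of any of 4 motifs, namely TTTGGCG, or else TTTCCCG, or else TTTCGCG, or else TTTGCCG, and no match overlapped another.
Dnmt1, chr9:20952574-20952873, minus strand: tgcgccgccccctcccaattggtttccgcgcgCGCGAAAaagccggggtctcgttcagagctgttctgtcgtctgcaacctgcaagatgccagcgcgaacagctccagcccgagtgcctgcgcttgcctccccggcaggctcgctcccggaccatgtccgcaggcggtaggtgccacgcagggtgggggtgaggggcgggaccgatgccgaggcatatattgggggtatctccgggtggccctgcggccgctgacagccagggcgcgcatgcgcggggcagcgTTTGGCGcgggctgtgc
Uhrf1, chr17:56304063-56304362, plus strand: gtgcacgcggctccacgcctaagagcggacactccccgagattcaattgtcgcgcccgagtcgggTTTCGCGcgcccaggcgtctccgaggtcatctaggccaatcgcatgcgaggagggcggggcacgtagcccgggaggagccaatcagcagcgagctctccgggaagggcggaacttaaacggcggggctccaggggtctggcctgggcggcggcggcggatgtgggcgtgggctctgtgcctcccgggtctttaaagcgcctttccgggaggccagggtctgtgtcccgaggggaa
Mbd4, chr6:115853292-115853591, minus strand: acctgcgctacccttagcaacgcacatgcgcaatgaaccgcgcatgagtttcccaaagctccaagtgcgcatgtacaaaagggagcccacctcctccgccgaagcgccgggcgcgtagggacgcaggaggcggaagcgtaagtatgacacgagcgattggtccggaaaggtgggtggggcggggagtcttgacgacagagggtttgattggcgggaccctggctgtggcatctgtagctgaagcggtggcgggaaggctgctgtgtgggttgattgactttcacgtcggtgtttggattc

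In this Dnmt1 window TTTCGCG lay on the opposite strand with its first printed base at position -218 from the start, and TTTGGCG lay on the strand of the gene at position 34. In the Uhrf1 window TTTCGCG lay at position -185, and the Mbd4 window held no match. The other 2 windows of Dnmt1 and the other window of Uhrf1, at other annotated starts, held none. Windows of Dnmt1 and Uhrf1 were printed only where they held a match. Among all 14 windows of the 9 genes, 2 held a match, and 6.7% of 32851 windows in the whole table did. The windows shown hold 33 CpG sites for Dnmt1, 33 for Uhrf1 and 25 for Mbd4, against a median of 7 and a 90th percentile of 31 over the whole table. The window of Tet2 held 57 CpG sites, and those of Dnmt3a 46, 47 and 18. A match is a stretch of letters and no evidence of binding, and the arrays did not measure methylation.

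Uhrf2, a paralogue of Uhrf1 that does not replace it in maintenance, was not called. Probe set 1454920_at read 1110 and 1243 in GC cells from pLN and PP, against 1030 and 340 in naive cells from pLN and PP. GC and naive signals were close in pLN and apart in PP. The log2 difference over both tissues was 0.97 ± 0.44 (limma adjusted p = 0.065). Probe set 1447217_at read 592 and 769 in GC cells from pLN and PP, against 642 and 225 in naive cells from pLN and PP, and differed by 0.80 ± 0.45 (limma adjusted p = 0.14). In pLN its GC signal was below the naive one, and in PP above it. Both probe sets were called higher when naive pLN was left out (1.75 for 1454920_at, 1.53 for 1447217_at), and 1454920_at also passed in 3 other settings. Without naive PP the differences were 0.19 for 1454920_at and 0.070 for 1447217_at.

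Dnmt3a, a de novo methyltransferase, had 5 tested probe sets that did not move together. Probe set 1423064_at read 1172 and 921 in GC cells from pLN and PP, against 1646 and 2764 in naive cells from pLN and PP, and was called lower by -1.03 ± 0.43 (limma adjusted p = 0.043). Probe set 1423065_at read 316 and 291 in GC cells from pLN and PP, against 118 and 144 in naive cells from pLN and PP, and was called higher by 1.14 ± 0.47 (limma adjusted p = 0.042), or at least 1.74-fold with naive PP at the level. Neither set of signals overlapped between cell types, and the directions were opposite. The other 3 probe sets differed by between -0.24 and 0.31 and were not called. Probe set 1423065_at entered the test through the GC arrays alone, and both calls stood near the threshold. That of 1423064_at was lost in 7 of 16 settings, among them without GC PP (-0.86), without GC pLN (-1.20) and without naive PP (-0.66). That of 1423065_at was lost in 6 of 14 settings, among them quantile normalization (0.46), cyclic loess (0.51), without GC PP (1.19) and without GC pLN (1.08). The mean over the 5 probe sets differed by 0.022 ± 0.31.

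Dnmt3b, the other de novo enzyme, was measured by 1 of its 2 probe sets. Probe set 1449052_a_at read 242 and 449 in GC cells from pLN and PP, against 513 and 605 in naive cells from pLN and PP. Every GC signal was below every naive one, but the log2 difference of -0.73 ± 0.44 was not called (limma adjusted p = 0.16). It was called lower after cyclic loess (-1.29, limma adjusted p = 0.0074) and quantile normalization (-1.26, limma adjusted p = 0.028). It was -0.30 without GC pLN and -1.16 without GC PP, not called in either. The second probe set, 1418351_a_at, was above the level on GC pLN alone, at 42.4, and was not tested.

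Mbd4, the thymine glycosylase, was higher in GC cells by all 3 probe sets. Probe set 1441079_at, the only one above the level on all 4 arrays, read 3312 and 3153 in GC cells from pLN and PP, against 1353 and 991 in naive cells from pLN and PP. It rose by 1.47 ± 0.42 on the log2 scale (limma adjusted p = 0.0041). Probe set 1449490_at read 786 and 664 in GC cells from pLN and PP, against 70.5 and 54.8 in naive cells from pLN and PP. Probe set 1457708_at read 661 and 772 in GC cells from pLN and PP, against 53.0 and 37.4 in naive cells from pLN and PP. Both pairs of naive signals were below the level, so in GC cells these 2 stood higher by at least 4.90-fold and at least 4.85-fold. They entered the test through the GC arrays alone. The call of 1441079_at was lost when GC pLN (1.43, limma adjusted p = 0.13) or GC PP (1.51, limma adjusted p = 0.12) was left out. The start region of Mbd4 printed here held no E2F-type match.

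Mbd2, which links methylated DNA to a repressive complex, rose by 1 of its 2 probe sets. Probe set 1425803_a_at read 1223 and 955 in GC cells from pLN and PP, against 292 and 200 in naive cells from pLN and PP. It rose by 2.10 ± 0.43 (limma adjusted p = 0.00012), at least 3.95-fold with naive PP at the level. This probe set entered the test through the GC arrays alone. Leaving out GC pLN ended the call (1.92, limma adjusted p = 0.065). Probe set 1417165_at read 7851 and 8007 in GC cells from pLN and PP, against 4934 and 6437 in naive cells from pLN and PP. All GC signals were above all naive ones here too, but the difference of 0.49 ± 0.46 was not called (limma adjusted p = 0.38). It was called higher after cyclic loess (1.22, limma adjusted p = 0.0047), after quantile normalization (1.28, limma adjusted p = 0.0023) and without naive PP (0.68, limma adjusted p = 0.0032). The mean of both probe sets was higher by 1.30 ± 0.34 in the fit over genes (limma adjusted p = 0.0069).

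Among the erasers, Tet2 and Tet3 were measured in both cell types. Tet2 probe set 1438781_at read 383 and 395 in GC cells from pLN and PP, against 994 and 1166 in naive cells from pLN and PP. It was lower in GC cells by -1.44 ± 0.42 (limma adjusted p = 0.0050), with near-equal differences of -1.35 in pLN and -1.53 in PP. That call was lost when GC pLN (-1.42, limma adjusted p = 0.14) or GC PP (-1.46, limma adjusted p = 0.14) was left out. The other Tet2 probe set, 1455300_at, read 583 and 546 in GC cells from pLN and PP, against 359 and 232 in naive cells from pLN and PP, and was not called (0.93 ± 0.44, limma adjusted p = 0.072), except without naive pLN (1.23, limma adjusted p = 0.010). The 2 probe sets of Tet2 thus pointed in opposite directions, and their mean differed by -0.25 ± 0.32.

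Tet3 had 1 probe set, 1439324_at, with 348 and 363 in GC cells from pLN and PP, against 567 and 849 in naive cells from pLN and PP. GC signals were the lower ones in both tissues, but the difference of -0.94 ± 0.43 missed the threshold (limma adjusted p = 0.066). It passed in 5 of 16 settings, after quantile normalization (-1.44), after cyclic loess (-1.46), with the scaling as deposited (-1.08), with the filter on all 4 arrays and when naive pLN was left out (-1.22). It also passed in the fit over genes on the mean of probe sets (limma adjusted p = 0.029). Tet1 had 4 probe sets, with signals between 0.900 and 26.9 on the 4 arrays, all below the level of their array. No difference was measured for it.

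**Figure D2:**
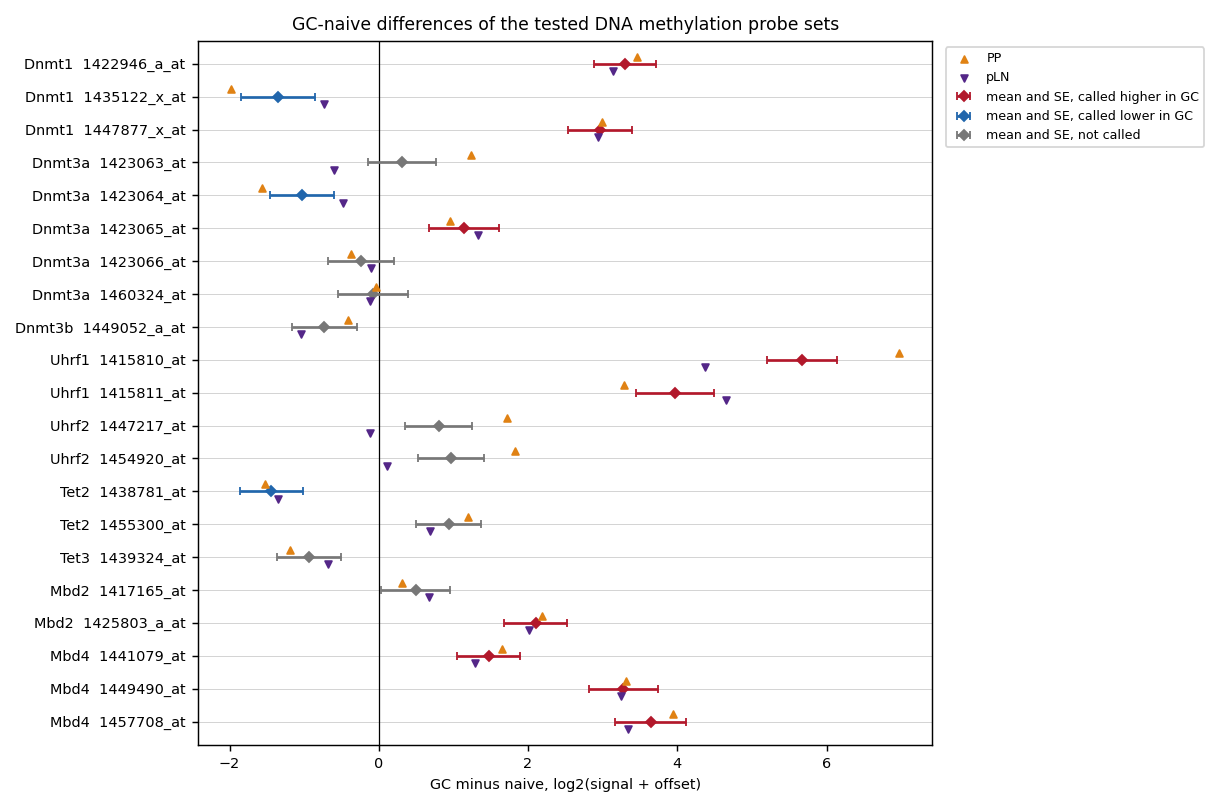
GC minus naive difference, log2(signal + offset), of the 21 tested probe sets (rows); diamonds with bars are the mean over both tissues with its SE, triangles pointing up are PP and triangles pointing down pLN, and colours give the limma call. The 2 rows of Uhrf1 lie between 3.97 and 5.67, and the rows of Dnmt1, Dnmt3a and Tet2 fall on both sides of 0.

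Probe sets of 1 gene called in both directions were found elsewhere on the array as well. Of 4696 genes with at least 2 tested probe sets, 490 (10.4%) had calls both ways. Of the 7 such genes among the 10 described here, Dnmt1 and Dnmt3a did. When each gene was taken by its brightest probe set, with the calls of the same fit, Dnmt1, Dnmt3a and Tet2 were called lower, Uhrf1 and Mbd4 higher, and Dnmt3b, Uhrf2, Tet3 and Mbd2 were not called. For genes taken this way, 25.8% of 9706 were called higher and 23.1% lower.

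Division genes were higher in the same cells as Uhrf1. All 7 measured division genes, taken by their brightest probe set, were called higher, with a median of 4.36. Top2a, Ccna2, Birc5 and Cdk1 entered the test through the GC arrays alone, so this count is a description only. Mki67, the proliferation marker, read 8548 and 10204 in GC cells from pLN and PP, against 552 and 352 in naive cells from pLN and PP. Top2a, a topoisomerase of replicated chromosomes, had signals of 5145 and 5467 in GC cells from pLN and PP, against 241 and 43.6 in naive cells from pLN and PP. The genes with the pattern most like Uhrf1 were Top2a, Birc5 and S1pr2, measured by the largest difference between centred log2 signals over the 4 arrays among 9705 other genes. Those largest differences were 0.20 for Top2a, 0.22 for Birc5 and 0.23 for S1pr2. By the same measure the genes nearest to Dnmt1, taken by its brightest probe set 1435122_x_at, were Elmo3 (0.059), Sfpq (0.067) and Cd40 (0.078). That probe set was the one called lower in GC cells, and the 2 probe sets of Dnmt1 called higher were not compared in this way. With only 4 arrays, each of a different population, likeness of this kind is a description. Whether the share of dividing cells accounts for the differences was not tested.

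The other genes of the pathway were described by lists, each gene by its brightest probe set, beside the 25.8% higher and 23.1% lower over all genes and their median of 0.018. Genes called higher with a naive signal below the level entered the test through the GC arrays alone. Pclaf, Hells, Cdca7 and Zbtb24 did so among the maintenance partners, and genes of other lists did too. The filter thus favoured high GC signals, and the list counts are a description only. Of 8 partners of maintenance methylation, 6 were called higher, none lower and 2 were not called (median 1.65). Pclaf, a PCNA-associated factor that takes part in bringing DNMT1 to replicated DNA, stood at least 31.2-fold above naive cells in GC cells, with both naive signals below the level. Hells, a chromatin remodeller needed for normal methylation, read 2216 and 2505 in GC cells from pLN and PP, against 149 and 209 in naive cells from pLN and PP, and was at least 12.1-fold higher. Lig1, the replicative ligase, rose by 2.12 ± 0.42, and Zbtb24 by 1.67 ± 0.45, at least 2.70-fold. The other probe set of Zbtb24 differed by 0.065. Usp7, a deubiquitinase that acts on UHRF1 and DNMT1, missed the threshold (-0.89 ± 0.49), while among its 7 probe sets, from -1.46 to 4.05, there were 5 called higher and 1 lower. Several of these partners are themselves replication genes.

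Among the other readers of CpG sites, 4 of 8 tested were called higher, none lower and 4 were not called (median 0.60). Zbtb38, a zinc finger protein that binds methylated DNA, read 4831 and 5452 in GC cells from pLN and PP, against 626 and 700 in naive cells from pLN and PP, 7.76-fold higher. Mbd3 rose by 1.26 ± 0.43, Zbtb33, which encodes Kaiso, by 1.25 ± 0.42, and Mbd1 by 1.08 ± 0.42. Of the 3 tested probe sets of Mbd1, 1 was called higher, and the lowest differed by 0.081. Of 6 tested cofactors of de novo methylation and imprinting, 1 was called higher, 1 lower and 4 were not called (median -0.43). The histone methyltransferase gene Setdb1 rose by 1.35 ± 0.43, at least 2.54-fold, by its brightest probe set, and its other tested probe set differed by -0.19. Trdmt1, a relative of the DNA methyltransferases that methylates transfer RNA, was lower by -2.19 ± 0.43 by its brightest probe set, and its other probe set differed by 0.082.

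Genes of base excision and deamination were called higher in 5 of 10 cases, lower in none, and 5 were not called (median 1.50). Neil3, a glycosylase, read 1355 and 2531 in GC cells from pLN and PP, against 108 and 27.0 in naive cells from pLN and PP, and was at least 11.1-fold higher. Neil1, another glycosylase, read 7674 and 8546 in GC cells from pLN and PP, against 881 and 1448 in naive cells from pLN and PP, 7.17-fold higher. Ung, which removes uracil, rose by 2.52 ± 0.44 and Apex1, which cuts the resulting abasic site, by 2.39 ± 0.43. Of the 3 probe sets of Apex1, 2 were called higher, and the lowest differed by 0.18. Ung is also known to act on the uracils made in antibody genes of GC cells.

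Of 7 genes that supply the methyl donor, 5 were called higher, 2 lower and none was left uncalled (median 1.11). Mtrr, which reactivates methionine synthase, rose by 3.01 ± 0.54, at least 2.93-fold, and Mtr, methionine synthase itself, was at least 1.75-fold higher. Mat2b, a subunit of the enzyme that makes S-adenosylmethionine, rose by 1.63 ± 0.44. Mthfd1, a folate enzyme, was lower by -1.74 ± 0.45 with its brightest probe set, while its 3 probe sets ranged from -1.74 to 3.33 with calls both ways. Of 5 genes around the TET cofactor, 2 were called higher, 1 lower and 2 were not called (median 0.96). Idh3a rose by 3.14 ± 0.46, at least 5.25-fold, and Idh1, which makes the cofactor 2-oxoglutarate in the cytosol, by 2.38 ± 0.43, at least 3.61-fold. Of the 3 tested probe sets of Idh3a, 1 was called higher, and the lowest differed by 0.41. D2hgdh, which clears a metabolite that inhibits the TET enzymes, was lower by -1.96 ± 0.48 by its brightest probe set and higher by 1.02 by the other, both called.

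**Figure D3:**
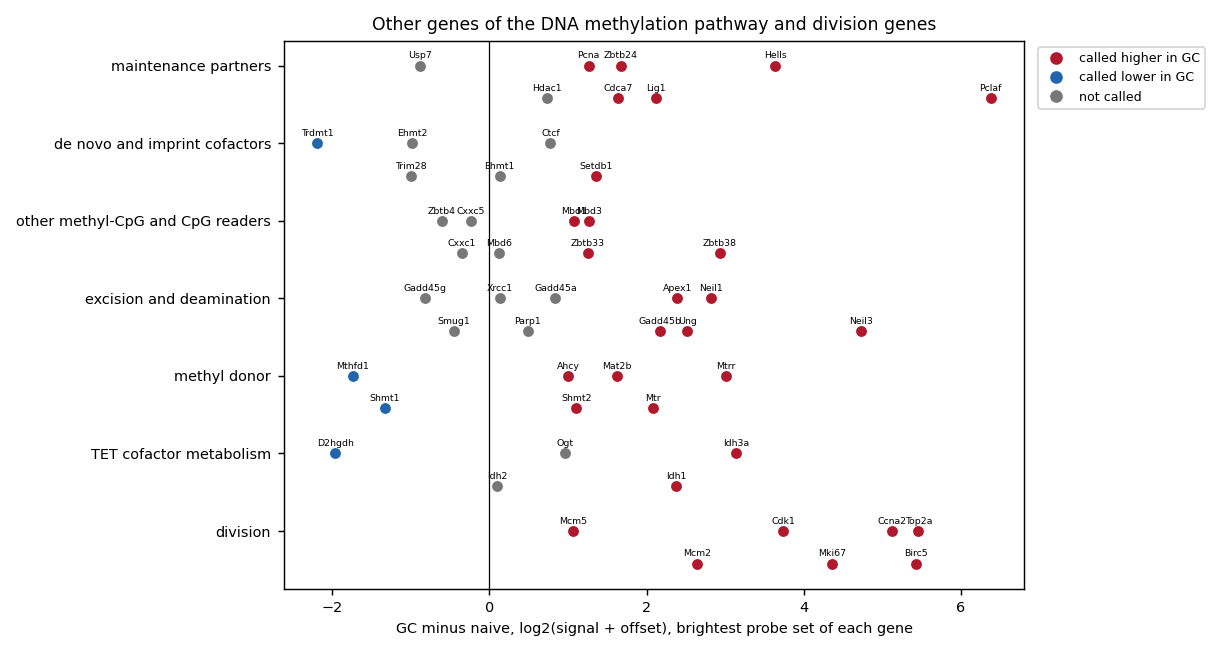
GC minus naive difference, log2(signal + offset), of the tested genes of 6 pathway lists and of the division list (rows), each gene by its brightest probe set; red is called higher in GC cells, blue called lower and grey not called. No gene of the maintenance, reader, excision and division rows was called lower.

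The last comparison set PP against pLN within each cell type, 1 array against 1, so it has no test, and tissue cannot be told apart from immunisation. In GC cells the measured genes differed by less than 2-fold between tissues. None of the 21 probe sets above the level on the brighter array differed by 2-fold or more, where 4.81% of 23710 probe sets were higher in PP and 2.8% lower. For so few probe sets the counts are close to those shares, so they do not set the genes apart. The widest difference was that of Dnmt3b 1449052_a_at, with 449 in PP against 242 in pLN, 0.86 on the log2 scale. Dnmt1 1422946_a_at read 2887 in PP against 2013 in pLN (0.52), and the other 19 tested probe sets lay between -0.35 and 0.37.

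In naive cells 4 of 16 probe sets above the level were at least 2-fold lower in PP and 1 was higher, where 21.5% of 17655 were lower and 7.41% higher. The counts are close to those shares in both directions. Uhrf1 1415810_at read 37.0 in PP against 243 in pLN. Uhrf2 1454920_at read 340 in PP against 1030 in pLN, and 1447217_at read 225 in PP against 642 in pLN. Dnmt3a 1423063_at read 235 in PP against 850 in pLN. All of these PP signals except that of Uhrf2 1454920_at lay below the level of 256 on naive PP, which also exceeded the pLN signal of Uhrf1, so for Uhrf1 no fold could be bounded. With Apoa1 left out of the background list only the Uhrf1 signal was below the level, and Uhrf1 was at least 1.72-fold higher in naive pLN. The probe set at least 2-fold higher in PP was Dnmt1 1435122_x_at, with 31580 in PP against 11490 in pLN, while 1447877_x_at of the same gene read 1088 in PP against 938 in pLN. For Dnmt3a, 1423063_at differed by -1.80 on the log2 scale (PP minus pLN, naive cells), whereas its other probe sets lay between -0.17 and 0.74. The naive PP array had the highest 3' to 5' ratio, 96.4 against 18.7 on naive pLN, and the highest gut marker sum. The part of these in the naive differences was not tested.

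**Figure D4:**
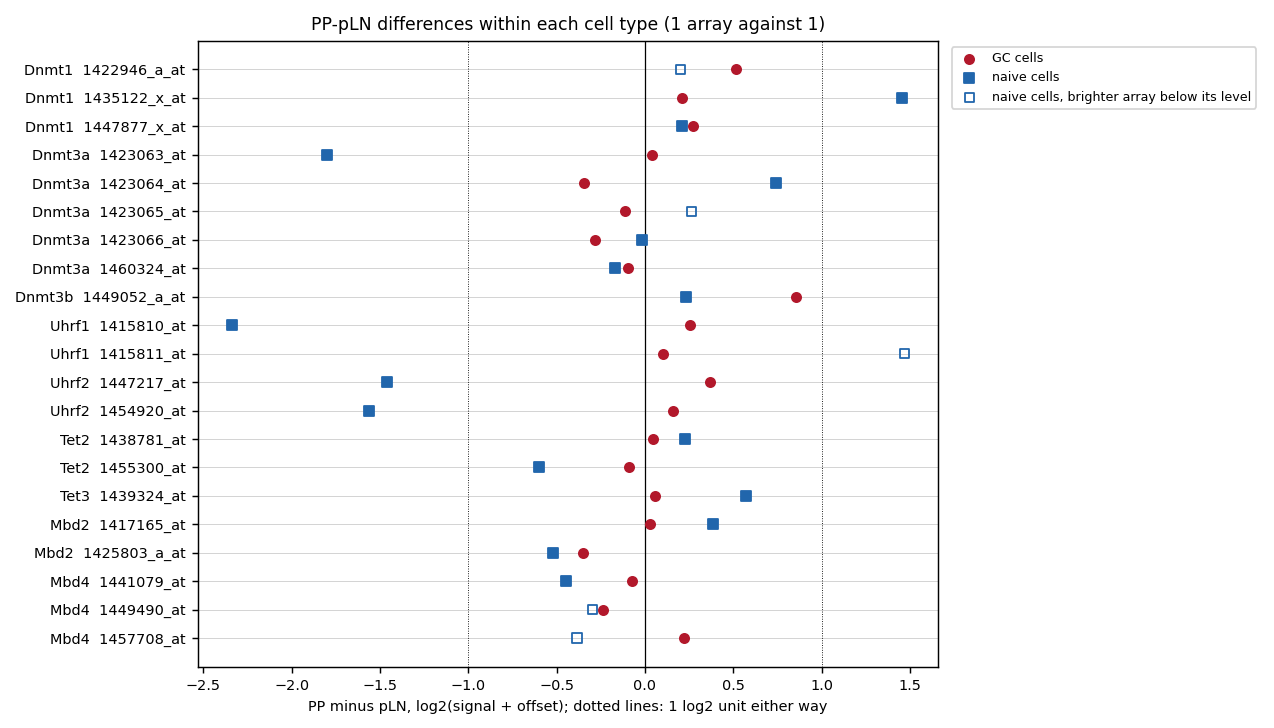
PP minus pLN difference, log2(signal + offset), of the 21 tested probe sets (rows) in GC cells (red circles) and naive cells (blue squares, open where the brighter array was below its level); dotted lines mark 1 log2 unit. All GC circles lie between -0.35 and 0.86, and the naive squares spread from -2.34 to 1.47.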

How the data were processed

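RNA from sorted cells was isolated with TRIzol and hybridised as biotinylated cRNA, per the labels' protocols, and signals were made with GCOS, per the submitters' processing notes. Their algorithm was not given in the sources used here. Each deposited intensity is on a linear scale with an array median of 1. No column was left unused.

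Signals were multiplied to bring the 2% trimmed mean of each array to 500, since the deposited trimmed means ranged from 7.35 to 10.0. An offset of 13.7, the median of 77 background probe sets, was added before log2, which understates differences of dim probe sets. Of 45101 probe sets, 34958 had 1 symbol in the platform annotation, 932 several, and 9211 were not listed. The Entrez identifiers of the 10 genes matched RefSeq without a change of symbol. The GC against naive comparison used limma 3.58.1 in R 4.3.3 over 21406 probe sets with tissue as a block and an intensity trend (prior degrees of freedom 36.0), and the method was tested on simulated data. Ratios written as -fold are of geometric mean signals. The rule for named genes took all 10 genes, Fas, Ptprc, Mki67 and Top2a, up to 4 called genes of each pathway list by size, and the 3 genes nearest to Dnmt1 and Uhrf1; Krt8 and other markers were named after their values were seen. Ptprc, the B220 antigen, differed by -0.20 by its brightest probe set and was not called. Its other probe set was called higher in GC cells, by 2.53. The genes, the lists and the tests were chosen with earlier results of these data known.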

Additional observations from a re-analysis of the deposited data

Results flagged for a closer look

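In 2 probe sets the GC minus naive difference had opposite signs in the 2 tissues, and the difference between tissues was not tested, since each group is 1 array. Dnmt3a 1423063_at read 570 in GC cells against 235 in naive cells of PP (1.23 on the log2 scale), and 554 against 850 in pLN (-0.61), so the difference was larger in PP by 1.84. Uhrf2 1447217_at read 769 in GC cells against 225 in naive cells of PP (1.71), and 592 against 642 in pLN (-0.12), so the difference was larger in PP by 1.83. In both, the naive PP signal was below the level of its array, 256, and above the level of 141 found without Apoa1 in the background list, and the GC signals of the 2 tissues were close to each other.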

How the results depend on the processing

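The alternatives covered scaling, offset, filter, block, trend, probe set choice and each array left out. Those with a common level of 200 and with Apoa1, which gut epithelium also uses, left out of the background list (naive PP level 141) were added after seeing the data. Calls for both probe sets of Uhrf1, for Dnmt1 1422946_a_at and 1447877_x_at and for Mbd4 1449490_at and 1457708_at held in every setting that tested them. Dnmt3a 1423063_at, not called, turned to -0.21 after cyclic loess, -0.23 with quantile normalization and -0.59 without naive PP, and with an array left out it ranged from -0.59 to 1.21 (without naive pLN, where it was called). Dnmt3a 1460324_at ranged from -0.16 to 0.0095 with an array left out, the positive value without naive pLN. Over all probe sets of the 10 genes and all settings, 267 results kept direction and call, 24 lost the call, 17 gained one and 4 changed sign. The cause was not tested.

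Other scalings moved the median log2 difference of tested probe sets from 0.45 to 0.14 (quantile), 0.19 (cyclic loess) and 0.32 (as deposited). Of all probe sets 7354 were called higher and 3545 lower, against 5480 and 4365 with quantile normalization, 6351 and 4376 after cyclic loess and 6792 and 4103 with the scaling as deposited. With fewer tested, 2331 were higher and 2140 lower by the brightest probe set per gene, or 2839 and 1476 by the mean of a gene's probe sets, and 2176 were higher and 3548 lower with the filter on all 4 arrays, where lower calls outnumber higher ones. Leaving out single arrays gave 2526 to 9031 higher and 799 to 4862 lower. Without GC PP 2526 were higher and 799 lower, and without GC pLN 2983 and 884. Of the probe sets of the 10 genes, 9 were higher and 3 lower. The count of higher ones was 2 by the brightest probe set per gene and 3 with the filter on all 4 arrays, and 6 to 13 with an array left out. The count of lower ones was 4 with the filter on all 4 arrays, which turns the balance, 1 with no filter and 1 with no tissue block, and 0 to 4 with an array left out (0 without GC PP or GC pLN).

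Counts of 2-fold PP-pLN differences moved too. In GC cells 1141 were higher in PP, against 1752 without Apoa1, 627 at the common level, 7635 with no filter and 756 as deposited. There 665 were lower in PP, against 274 at the common level, 1176 after cyclic loess, 3552 with no filter and 1419 as deposited. In naive cells 1308 were higher in PP, against 11281 with no filter and 593 as deposited, and 3788 were lower, against 8982 with no filter and 5976 as deposited. Of the 10 genes' probe sets, 1 was higher in PP in GC cells with no filter, and in naive cells 3 were with no filter and 0 with quantile normalization. The labels give no replicate numbers, and the comparison as reported pairs GC and naive arrays by tissue through the block. With no tissue block 6248 were higher and 3201 lower.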
